A study of Homo sapiens with 30 samples.

Results

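The oncofetal group examined here holds 8 genes: LIN28B, HMGA1, HMGA2, IGF2BP1, IGF2BP2, IGF2BP3, IGF2 and H19. They were taken by symbol from the PRO-seq table, which has 20367 gene symbols, and all 8 were in it with 1 transcript each. The transcripts counted lie in hg19 at separate loci except for the neighbours IGF2 and H19: LIN28B at chr6:105404923-105531206 (+), HMGA1 at chr6:34204577-34214008 (+), HMGA2 at chr12:66218240-66360071 (+), IGF2BP1 at chr17:47074774-47133507 (+), IGF2BP2 at chr3:185361527-185542827 (−), IGF2BP3 at chr7:23349828-23509995 (−), IGF2 at chr11:2150347-2170833 (−) and H19 at chr11:2016406-2019065 (−). The cells were G401, a malignant rhabdoid tumor (MRT) line that lacks the SNF5 protein (gene SMARCB1), engineered to express EGFP, OMOMYC or SNF5 from a TET-inducible vector. OMOMYC is a dominant-negative form of MYC. In every group, the EGFP control included, the cells had received 1 µg/ml doxycycline for 24 h. PRO-seq, which maps engaged RNA polymerases, and ATAC-seq, which maps open chromatin, were each done in 3 samples per construct, and MYC ChIP-seq in 2 per construct. All samples come from 1 cell line, so p-values measure only the spread between samples of this line. The PRO-seq and ChIP-seq samples of a construct were described as independent experiments.

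These genes are active in the embryo, mostly fall silent after birth and return in many tumors. LIN28B binds precursors of the let-7 microRNA and blocks their maturation, and let-7 in turn represses HMGA2, LIN28B and the IGF2BP messenger RNAs. HMGA1 and HMGA2 are architectural proteins that bind AT-rich DNA, the 3 IGF2BP proteins bind and stabilise RNAs, and IGF2 and H19 are neighbouring, reciprocally imprinted genes for a fetal growth factor and a noncoding RNA.

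The constructs were seen in the counts. SMARCB1 had 1 to 6 gene body reads in the EGFP and OMOMYC samples and 2870 to 4467 in the SNF5 samples. Gene body reads of MYC were 1.94-fold higher with OMOMYC (edgeR's quasi-likelihood test, Benjamini-Hochberg adjusted p = 0.038), and here and for SMARCB1 reads of the transgene and of the endogenous gene cannot be told apart. Libraries held 28444943 to 46957634 gene body reads, and the share of reads in promoter-proximal windows was 1.46 to 1.97% in the samples numbered 1 against 4.21 to 10.3% in the others. Summed levels of hematopoietic markers (PTPRC, CD3E, LYZ) were at most 0.339 CPM (gene body counts scaled to a common library total) in any sample, while those of 3 epithelial markers ran from 2.97 to 25.5, mostly CDH1, and those of 3 endothelial markers from 5.10 to 30.7, mostly VWF with PECAM1 at 0. The endothelial sum was 13.1 to 30.7 in SNF5 samples and 5.99 to 11.3 in EGFP samples, and its part in the results below was not tested.

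MYC binding at the members was examined first, in the EGFP samples. One member, IGF2BP1, had overlapping MYC peaks in both EGFP samples with a summit within 1 kb of an annotated start, against 5.25% of the 17107 genes of the table with an annotated start. The IGF2BP1 summits lay 88 bp and 60 bp upstream of the start, with 5.17-fold and 7.47-fold enrichment. Both other shared peaks lay farther out. At HMGA1 the summits were 1161 bp and 1360 bp upstream of the start, with 5.17-fold and 7.64-fold enrichment. The nearest annotated start was that of another gene, ENSG00000288879, 1036 bp and 1235 bp away. At IGF2BP3 the summits were about 4.24 kb upstream of the nearest IGF2BP3 start, with 5.49-fold and 8.97-fold enrichment. They lay 84 bp and 88 bp from the start of another annotated gene, ENSG00000289109.

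The second EGFP sample, whose list holds 5396 peaks against 940 in the first, had more peaks at these genes. It alone placed summits at HMGA2, 430, 688 and 1301 bp upstream of the start with 4.86-fold to 7.57-fold enrichment. It alone also had low peaks in an intron of LIN28B, 679 bp past the start and 3.29-fold enriched, and 210 bp upstream of the IGF2BP3 start, 3.32-fold enriched. A further peak of that sample lay in an HMGA1 intron, 620 bp from another annotated HMGA1 start (4.57-fold). Others lay 1371 bp upstream of IGF2BP1 (4.12-fold) and, in the window of IGF2BP3, at the start of MALSU1 (4.204-fold). With that sample by itself the count within 1 kb of a start was 5 members (HMGA1, HMGA2, IGF2BP1, IGF2BP3, LIN28B), beside 26.5% of the 17107 genes, and with the first sample by itself it was 1, beside 5.28%. Within 5 kb of a start, peaks shared by both samples were at 3 members, beside 5.85% of genes. IGF2BP2 and IGF2 had no MYC peak within 50 kb of the gene in either sample, and the 1 peak near H19 lay 26 bp from the start of MRPL23. Without entries named as fake, the lists of the OMOMYC samples held 0 peaks and those of the SNF5 samples 137 and 27. None of these was within 50 kb of a member. The paper's reporting summary counts 1 peak for each OMOMYC sample. With 2 samples against 2, an exact test cannot go under p = 0.33, so no test was made.

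The sequences below were chosen because they hold the E-box CACGTG, the palindrome that MYC:MAX recognizes, near members with a MYC peak (E-boxes in capitals, each 5′ to 3′ on the strand of the gene). Windows without one are not printed: the 300 bases around the LIN28B summit, around the HMGA1 summit of the first EGFP sample and around the HMGA1 intron summit held 0, as did the 250 bases before the other LIN28B start in RefSeq. The LIN28B and IGF2BP3 stretches are the 250 bases before a RefSeq start in GRCh38.p14, at chr6:104956857-104957106 (+) and chr7:23470492-23470741 (−). Counted from the RefSeq start, the E-box of LIN28B begins at base −47 and those of IGF2BP3 at bases −174 and −146. The HMGA1 stretch is the 300 bases around the summit in the second EGFP sample, at chr6:34203140-34203439 (+) of hg19, and its E-box lies 7 bases from the summit.
LIN28B: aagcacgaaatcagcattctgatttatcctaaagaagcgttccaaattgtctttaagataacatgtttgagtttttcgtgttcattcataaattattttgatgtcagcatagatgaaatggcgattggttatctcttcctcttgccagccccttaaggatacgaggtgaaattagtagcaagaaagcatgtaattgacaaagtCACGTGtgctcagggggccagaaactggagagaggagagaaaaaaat
IGF2BP3: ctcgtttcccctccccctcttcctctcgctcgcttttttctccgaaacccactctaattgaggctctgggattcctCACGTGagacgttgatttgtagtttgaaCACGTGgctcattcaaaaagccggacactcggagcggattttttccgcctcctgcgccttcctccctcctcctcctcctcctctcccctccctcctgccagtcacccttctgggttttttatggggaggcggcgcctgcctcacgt
HMGA1: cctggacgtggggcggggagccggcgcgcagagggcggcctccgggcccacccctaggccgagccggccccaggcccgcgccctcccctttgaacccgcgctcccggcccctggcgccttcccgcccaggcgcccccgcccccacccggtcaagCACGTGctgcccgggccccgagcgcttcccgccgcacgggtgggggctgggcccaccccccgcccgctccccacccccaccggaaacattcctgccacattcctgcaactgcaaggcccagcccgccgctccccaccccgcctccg
In the second EGFP sample the nearer IGF2BP3 E-box was 38 bases from the low summit at the start. An E-box was found in 29.8% of all 300-base windows of that sample's peaks, in 56.6% of those of the first sample and in 7.26% of 35116 RefSeq promoters (250 bases before to 50 after a start), read on both strands since the motif is its own reverse complement. No CACGTG was in the 300 bases around the stronger IGF2BP3 summits farther upstream. The 250 bases before the RefSeq starts of HMGA1, IGF2BP2 and H19 held none, and 5 of the 8 members had a RefSeq promoter to search. IGF2BP1 and HMGA2 had no such promoter. Whether the windows around their MYC summits hold an E-box is not given here.

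**Figure D1:**
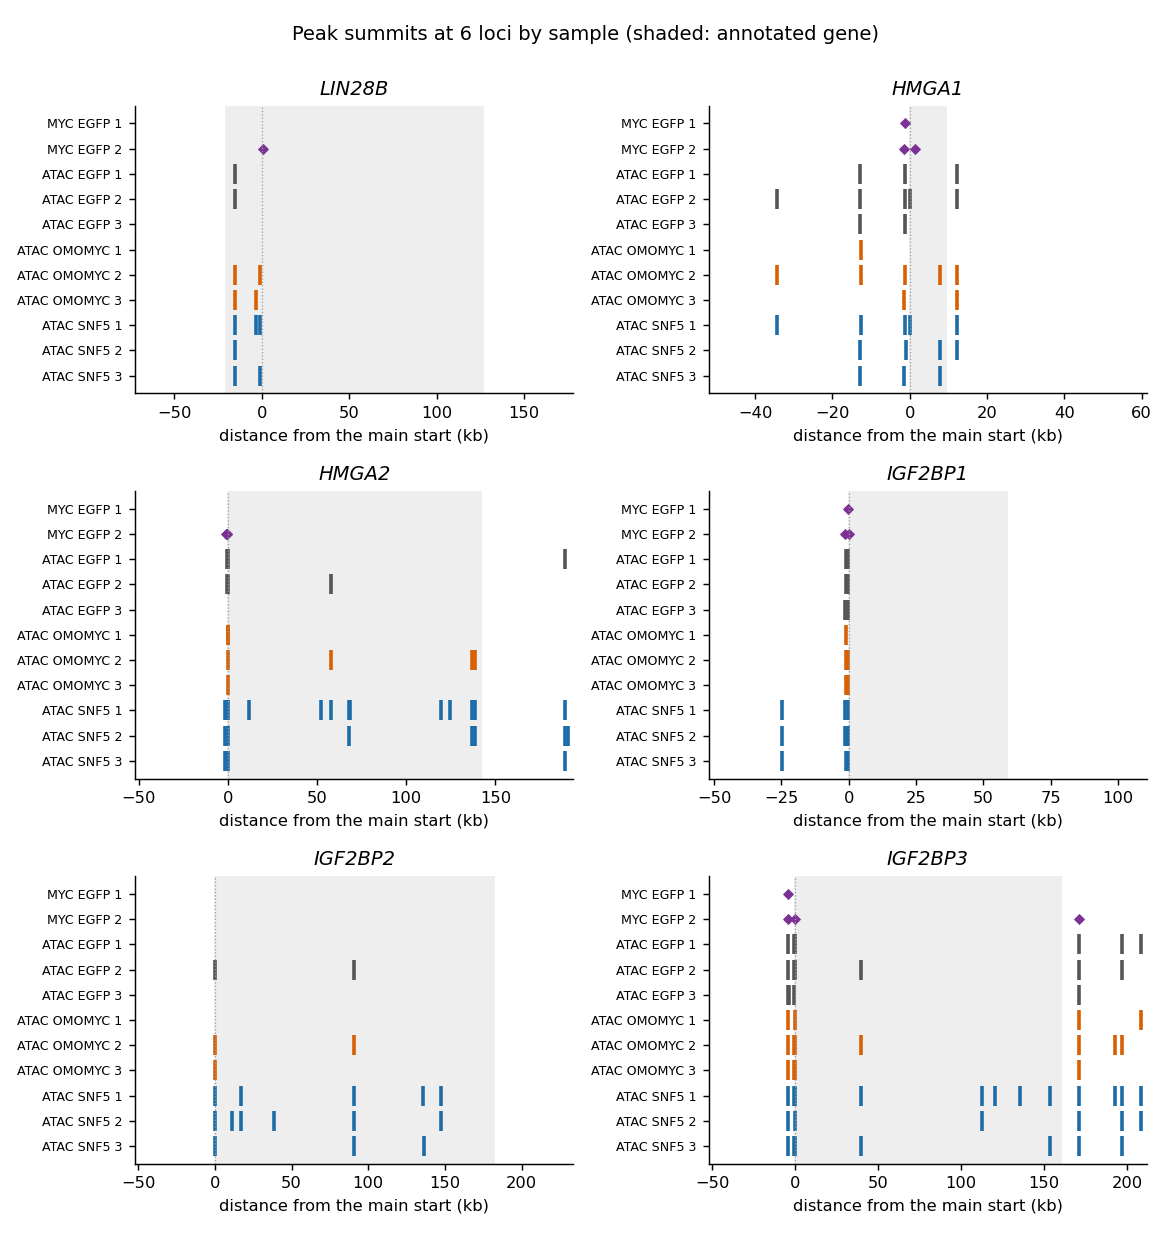
Positions of peak summits at 6 loci by sample, as distance in kb from the main annotated start on the gene's strand, for MYC ChIP-seq in EGFP cells (diamonds) and ATAC-seq in all 9 samples (bars), with the annotated gene shaded. MYC peaks of OMOMYC and SNF5 samples are not drawn because none lay in these windows. SNF5 samples carry most of the ATAC peaks inside HMGA2, IGF2BP2 and IGF2BP3.

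Transcription of the members was then compared in gene bodies, from 1 kb past the start to the end of the transcript. Levels are in RPKM, computed from the deposited counts with the length of the gene body and the scaled total of gene body reads, so that genes can be set side by side. In EGFP samples HMGA2 and HMGA1 stood at 17.96 ± 1.44 and 14.6 ± 0.867 (SD, n = 3), higher than 98.5% and 98.0% of the 15060 genes tested. IGF2BP1 (3.70 ± 0.351), IGF2BP3 (3.43 ± 0.796) and IGF2BP2 (2.58 ± 0.250) followed, with LIN28B at 1.99 ± 0.675. The neighbours IGF2BP1 and IGF2BP3 overlapped, as did IGF2BP3 with IGF2BP2, and IGF2BP2 with LIN28B. IGF2 and H19 were close to silent. IGF2 had 3 to 21 gene body reads and H19 0 to 15 reads per sample, and the IGF2 promoter-proximal window had 0 reads in all 9 samples, which allows up to 3 reads per library by counting error alone. That window belongs to the start of the counted transcript only, while IGF2 has 10 annotated starts. In all, 7 members passed the filter of a mean of 10 gene body reads, and H19, with a mean of 3.67, did not.

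**Figure D2:**
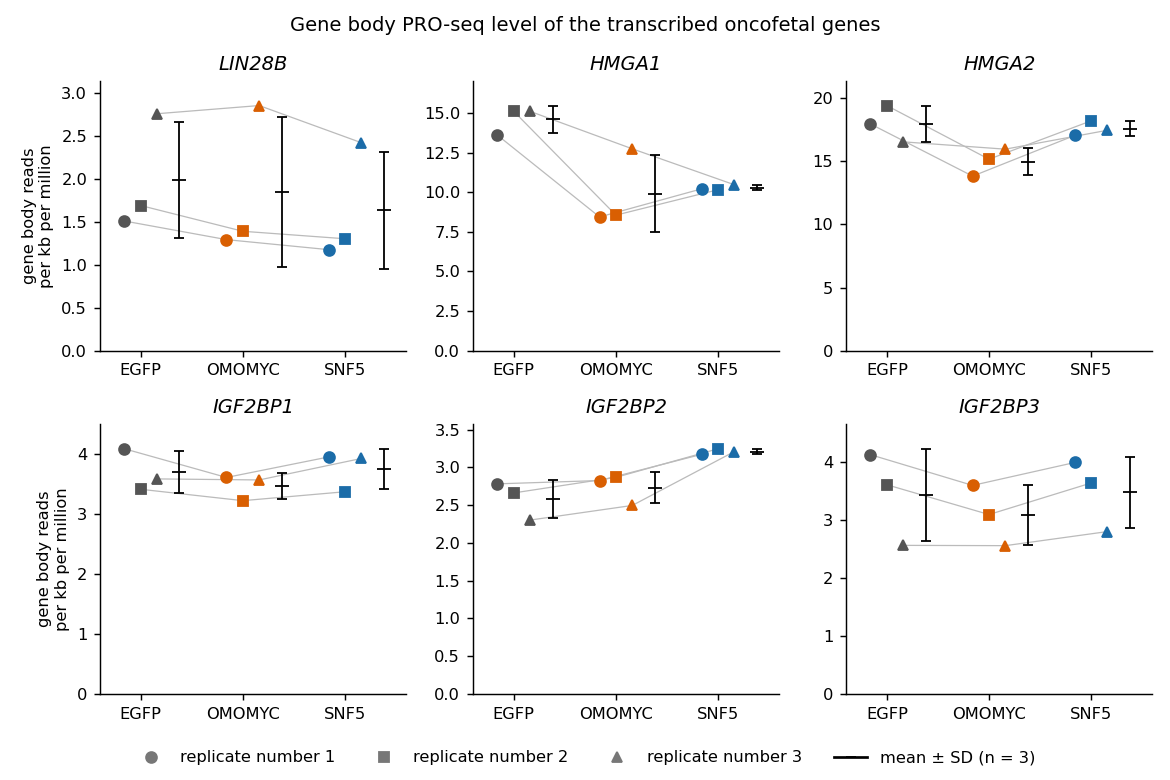
Gene body PRO-seq level in RPKM for 6 members, by construct. Symbols give the replicate number, gray lines join samples of the same number, and bars are the mean ± SD of 3 samples. HMGA1 is lower in all 6 SNF5 and OMOMYC samples than in the 3 EGFP samples, and IGF2BP2 is highest in the 3 SNF5 samples.

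The first question was what SNF5 did to transcription of these genes. Against EGFP, 3 of the 7 members tested passed an adjusted p of 0.05, beside 34.1% of all 15060 genes tested. HMGA1 and LIN28B fell (16.5% of all genes tested were called lower) and IGF2BP2 rose (17.6% were called higher). HMGA2, IGF2BP1, IGF2BP3 and IGF2 did not pass. In 3 of the 7 all 3 pairs of the same number went one way, beside 59.0% of all genes. The median log2 fold change over the 7 was −0.03, and over all genes −0.03.

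HMGA1 had levels of 13.6, 15.1 and 15.1 in EGFP samples 1, 2 and 3, and of 10.2, 10.2 and 10.5 in the SNF5 samples. The 2 groups did not overlap, which held for 19.1% of all genes tested. The fitted log2 fold change was −0.50 ± 0.11 (SE), or 1.42-fold lower, with an adjusted p of 0.0088 (edgeR's quasi-likelihood test with the replicate number as a block).

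LIN28B, the block on let-7 maturation, had levels of 1.51, 1.69 and 2.76 with EGFP and of 1.176, 1.30 and 2.42 with SNF5. The groups overlapped because both samples numbered 3 stood well above the others, yet the SNF5 sample was lower than the EGFP sample of its number in 3 of 3 pairs. The log2 fold change was −0.31 ± 0.07, or 1.24-fold lower (edgeR, adjusted p = 0.0079). Across constructs the mean LIN28B level of the samples numbered 3 was 2.02 times that of the samples numbered 1.

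IGF2BP2, an RNA-binding protein best known from metabolism and muscle, had levels of 2.78, 2.66 and 2.301 with EGFP and of 3.17, 3.25 and 3.21 with SNF5. All 3 SNF5 samples were above every EGFP sample. The log2 fold change was 0.32 ± 0.06, or 1.25-fold higher (edgeR, adjusted p = 0.0047). Its relatives did not pass: the log2 fold change was 0.02 ± 0.05 for IGF2BP1 and 0.03 ± 0.06 for IGF2BP3, with adjusted p-values of 0.79 and 0.71 in edgeR. HMGA2 stood at −0.03 ± 0.06 (adjusted p = 0.73), with 16.5 to 19.4 in EGFP and 17.0 to 18.2 in SNF5 samples.

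IGF2 had 5, 19 and 11 gene body reads with EGFP and 7, 10 and 3 with SNF5, a difference that did not pass (log2 fold change −0.90 ± 0.50, edgeR adjusted p = 0.19). H19 had 5, 15 and 1 reads with EGFP and 4, 1 and 0 with SNF5, too few to test.

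The SNF5 calls depended on the samples. With the replicate number left out of the model 0 members were called (225 genes of the whole table), and without the samples numbered 2 also 0 (9.64% of all genes), with the same directions for HMGA1 (−0.45), LIN28B (−0.26) and IGF2BP2 (0.35). Without the samples numbered 1, LIN28B no longer passed (−0.29, edgeR adjusted p = 0.11), where 10.8% of all genes were called.

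The comparison of OMOMYC with EGFP asks what inhibition of MYC alone did. Here 2 of the 7 members passed, beside 8.53% of all genes, and both fell (4.42% of all genes were called lower and 4.1% higher). HMGA1 had levels of 8.44, 8.55 and 12.7 with OMOMYC, all below the EGFP samples, which held for 11.4% of all genes in one direction or the other. Its log2 fold change was −0.57 ± 0.11, or 1.49-fold lower (edgeR, adjusted p = 0.026). HMGA2, at 17.9, 19.4 and 16.5 with EGFP, had 13.8, 15.2 and 15.9 with OMOMYC. These groups did not overlap either, although the pair numbered 3 differed by only −0.05 on the log2 scale against −0.38 and −0.36 in the others. The fitted value was −0.26 ± 0.06, or 1.199-fold lower (edgeR, adjusted p = 0.042).

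LIN28B (log2 fold change −0.15 ± 0.07), IGF2BP3 (−0.14 ± 0.06) and IGF2BP1 (−0.09 ± 0.05) did not pass with OMOMYC, nor did IGF2BP2 (0.08 ± 0.06), at edgeR adjusted p-values of 0.17, 0.13, 0.31 and 0.41. The median over the 7 members was −0.14, and over all genes −0.00029. IGF2 had 7, 21 and 17 reads with OMOMYC (log2 fold change 0.39 ± 0.44) and H19 had 1, 4 and 2. In 6 of the 7 all 3 pairs went one way, beside 54.4% of all genes. The calls of HMGA1 and HMGA2 were lost without the samples numbered 1 (HMGA1 −0.52, HMGA2 −0.20) and without those numbered 2 (−0.45 and −0.20). In each of those fits 2 genes of the whole table were called (0.0133%). Without those numbered 3, 5 members were called, LIN28B, IGF2BP1 and IGF2BP3 being added, beside 44.6% of all genes.

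SNF5 and OMOMYC were also compared with each other. Again 2 of 7 members passed, beside 18.9% of all genes, and both were higher with SNF5 (11.5% of all genes were called higher and 7.38% lower). HMGA2 differed by 0.23 ± 0.06 and IGF2BP2 by 0.24 ± 0.06 on the log2 scale (edgeR adjusted p = 0.036 and 0.026). In neither gene did the groups overlap, as in 14.6% of all genes, and in 6 of the 7 members all 3 pairs went one way, beside 56.0% of all genes. HMGA1 did not differ detectably, with 10.2 to 10.5 in SNF5 and 8.44 to 12.7 in OMOMYC samples (0.07 ± 0.11, adjusted p = 0.70), and its sign turned without the samples numbered 1 (−0.03) or 2 (−0.0065). IGF2BP3 (0.17 ± 0.06) and LIN28B (−0.16 ± 0.07) stood at adjusted p-values of 0.062 and 0.13. The HMGA2 call was lost with TMM scaling (edgeR adjusted p = 0.051). Both calls were lost without the samples numbered 1 (0.19 and 0.27) or 2 (0.22 and 0.27), where 5.51% and 4.9% of all genes were called, and without those numbered 3 there were 6 calls, beside 41.2% of all genes.

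**Figure D3:**
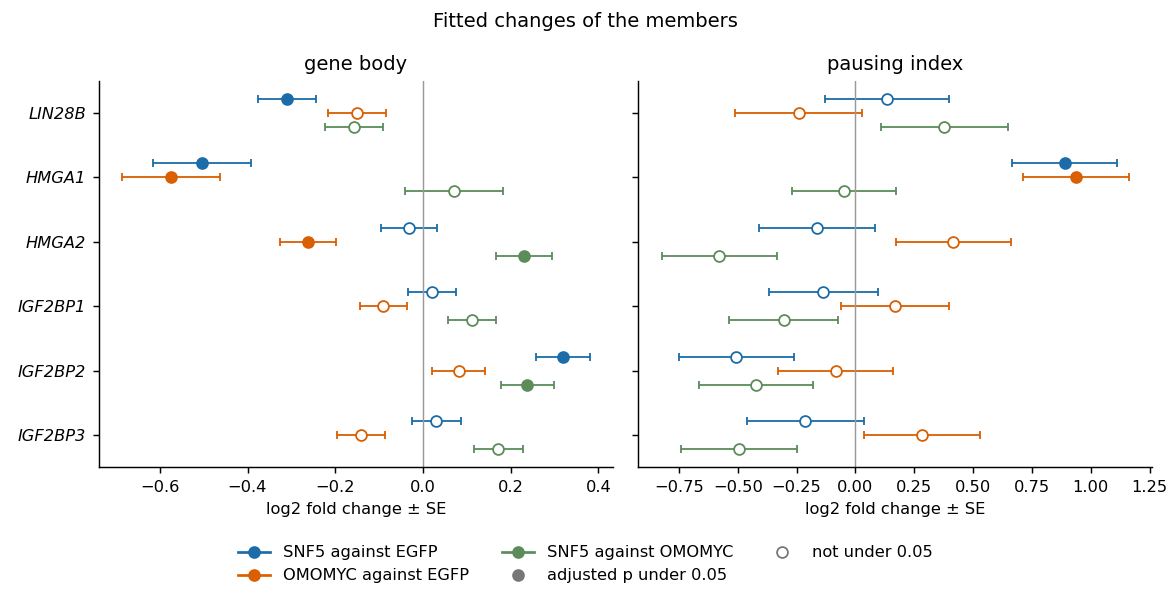
Fitted log2 fold change ± SE of 6 members in gene body counts (left) and in the pausing index (right) for 3 comparisons. Filled points have an adjusted p under 0.05. HMGA1 is at −0.50 and −0.57 in gene bodies against EGFP and at 0.89 and 0.94 in the pausing index.

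Polymerase near the start was counted in the 50 bp window with the most reads around the start, and the pausing index is the read density there divided by that of the gene body. Of the members, 6 passed the filter on promoter-proximal counts. In these counts 0 of 6 passed in any comparison, beside 4.22% of all genes with SNF5 (2.62% higher and 1.59% lower), 1.72% with OMOMYC (1.57% and 0.151%) and 0.836% between SNF5 and OMOMYC (0.489% and 0.347%). At an unadjusted p of 0.05 it was also 0 of 6 members in each comparison. Of all 11241 genes, 2253, 1730 and 1550 were under that p in edgeR, in the same order. The log2 fold changes ran from −0.21 to 0.38 with SNF5 and from −0.38 to 0.36 with OMOMYC, with standard errors of 0.21 to 0.25. DESeq2 with the same block also called 0.

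The pausing index of 1 member, HMGA1, rose with both constructs, beside 3.65% of all 11171 genes called with SNF5 (2.08% higher and 1.58% lower) and 2.01% with OMOMYC (1.94% and 0.0716%). Between SNF5 and OMOMYC 0 of 6 passed, beside 1.15% of all genes (0.143% higher and 1.0% lower). In EGFP samples 1, 2 and 3 it was 2.79, 14.8 and 5.28. With SNF5 it was 4.25, 31.3 and 9.97, and with OMOMYC 4.72, 31.6 and 9.99. The groups overlapped because the numbers differed so much, and each of the 6 samples was above the EGFP sample of its number. The log2 change was 0.89 ± 0.22 with SNF5 (1.85-fold, edgeR adjusted p = 0.015) and 0.94 ± 0.22 with OMOMYC (1.92-fold, adjusted p = 0.017).

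The parts of the ratio were also read apart in HMGA1. The promoter-proximal level had log2 changes of 0.38 ± 0.21 and 0.36 ± 0.21, neither of which passed, while the gene body fell as given above. HMGA1 also has a RefSeq start at base 34238791 of GRCh38, inside the gene body counted from the main start at 34236873. Polymerase near that second start is counted as gene body, and its part in both changes was not tested. SNF5 and OMOMYC did not differ detectably in its index (−0.05 ± 0.22, edgeR adjusted p = 0.96). The median change of the index over all genes was 0.01 with SNF5 and 0.14 with OMOMYC. With promoter-proximal counts scaled by their own totals, the HMGA1 changes were 0.90 and 0.78 and still passed (edgeR adjusted p = 0.0028 and 0.023). In that setting 7.32% and 1.73% of all genes passed. Without the samples numbered 2 the HMGA1 changes were 0.77 and 0.84 and did not pass (adjusted p = 0.54 and 1.00). There 0.125% and 0% of all genes passed.

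**Figure D4:**
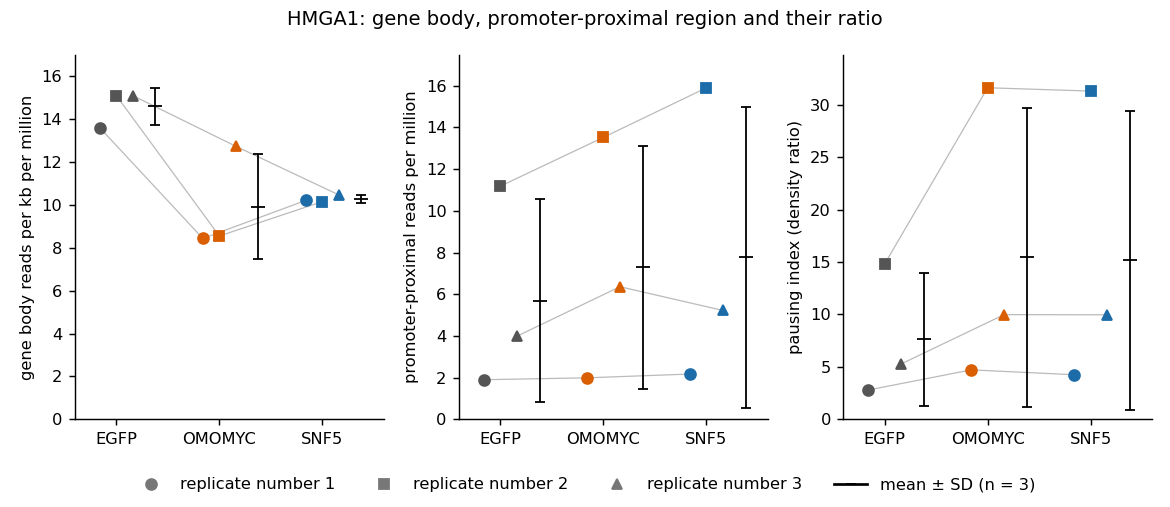
HMGA1 in each PRO-seq sample: gene body level (RPKM), promoter-proximal level (CPM) and pausing index, with lines joining samples of the same number and bars for the mean ± SD of 3 samples. The index of the samples numbered 2 runs from 14.8 with EGFP to 31.6 with OMOMYC, far above that of the samples numbered 1.

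The other 5 members did not pass in the index. IGF2BP2, which rose in the gene body with SNF5, had a log2 change of −0.51 ± 0.24 (edgeR adjusted p = 0.25), with 12.0, 42.9 and 51.3 in EGFP and 11.1, 34.7 and 25.8 in SNF5 samples. HMGA2 stood at 0.42 ± 0.25 with OMOMYC and at −0.58 ± 0.24 between SNF5 and OMOMYC (adjusted p = 0.43 and 0.26). In EGFP samples the index ran from 4.65 to 79.9 for IGF2BP1 and from 2.76 to 21.2 for HMGA2.

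Genes that act with the members were taken from 5 lists. Beside each list stand the shares of all genes: 17.6% were called higher and 16.5% lower with SNF5, and 4.1% and 4.42% with OMOMYC. The median log2 fold changes of all genes were −0.03 and −0.00029. Of 17 genes that control or process let-7, 3 rose and 4 fell with SNF5 in gene body counts, and with OMOMYC 0 rose and 3 fell (all genes: 34.1% and 8.53% called). Median log2 fold changes were −0.08 and −0.18. KHSRP, which promotes let-7 maturation, fell by 0.39 ± 0.06 with SNF5 and by 0.23 ± 0.06 with OMOMYC. The Microprocessor subunit DGCR8 fell by 0.27 ± 0.07 and the nuclear export factor XPO5 by 0.24 ± 0.06 with SNF5, and XPO5 fell by 0.25 ± 0.06 with OMOMYC (edgeR adjusted p = 0.042). The let-7 host transcripts MIR100HG (0.94 ± 0.31) and LINC00478 (0.28 ± 0.08) rose with SNF5, as did the uridylyltransferase ZCCHC6 (0.28 ± 0.08). LIN28A, the paralog of LIN28B, was also transcribed, at 4.75, 3.72 and 5.79 RPKM with EGFP and 5.63, 4.99 and 5.62 with SNF5 (log2 fold change 0.22 ± 0.12, edgeR adjusted p = 0.18).

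Of 24 other let-7 targets tested, 5 rose and 9 fell with SNF5, while with OMOMYC 2 rose and 2 fell. The median with SNF5 was −0.12. STARD13 rose by 0.63 ± 0.09 and PRTG by 0.45 ± 0.05. CDC34, a ubiquitin-conjugating enzyme, fell by 0.48 ± 0.08, the helicase-nuclease DNA2 by 0.41 ± 0.07 and LIMD2 by 0.35 ± 0.11.

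In the insulin-like growth factor axis, 3 of 15 genes rose and 1 fell with SNF5, and 0 of 15 passed with OMOMYC, with medians of 0.22 and −0.05. IGF1 rose from at most 0.0862 CPM in EGFP samples to 0.691, 2.80 and 0.291 in SNF5 samples, a fitted log2 change of 4.05 ± 0.73 that depends on very few EGFP reads. The adaptor IRS1 rose by 0.39 ± 0.08 and the binding protein IGFBP7 by 0.63 ± 0.10, and IGFBP3 fell by 0.55 ± 0.11. IGFBP7 and IGFBP3 were far lower in all samples numbered 3, at most 21.2 and 0.345 CPM against at least 230.4 and 37.9 in the others.

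Among 9 tested genes of the imprinted 11p15 region or of IGF2 and H19 control, PLAG1, a zinc finger activator of IGF2, rose with SNF5 (1.02 ± 0.18) and with OMOMYC (0.73 ± 0.18), while the insulator protein CTCF fell by 0.19 ± 0.05 with SNF5. With OMOMYC 2 rose and 0 fell. Medians were 0.14 and 0.10. Of 10 other oncofetal genes tested, 2 rose and 2 fell with SNF5 and 0 rose and 1 fell with OMOMYC, with medians of −0.14 and −0.27. The noncoding RNA MEG3 (1.30 ± 0.21) and the retrotransposon-derived PEG10 (1.05 ± 0.26) rose, and the telomerase subunit TERT (−1.28 ± 0.24) and the growth factor MDK (−0.59 ± 0.12) fell. The highest edgeR adjusted p of the list genes named as rising or falling with SNF5 was 0.042. Without the replicate block 0 genes of any of the 5 lists passed with SNF5, beside 1.49% of all genes. In the order of the lists given here, 1, 5, 3, 0 and 2 genes passed without the samples numbered 1, 1, 3, 2, 1 and 2 without those numbered 2, and 12, 20, 9, 4 and 6 without those numbered 3. Of all genes, 10.8%, 9.64% and 56.2% passed in these fits.

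For each member, genes most like it over the 9 samples were sought among 12162 genes with a mean of 100 gene body reads, after removing the mean of each replicate number. They were XRCC2 (Pearson r = 0.997) and SLC30A6 (0.996) for HMGA1, CDK5R1 (0.995) for LIN28B, HNRNPR (0.996) and LZTFL1 (0.986) for HMGA2, and ANO6 (0.995) and SYBU (0.991) for IGF2BP2. For IGF2BP1 they were SARNP (0.990) and SMOX (0.989), for IGF2BP3 ELK4 (0.989) and GUCY1A2 (0.982), and for IGF2 GUSBP4 (0.984) and C6orf89 (0.976). These values come from the highest of many comparisons over samples that share libraries and constructs, and are a description.

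Chromatin at the members was read from the ATAC-seq peak lists, within 50 kb of each gene. Overlapping peaks of the 9 samples made 46 sites, and peaks of SNF5 samples were found at 45 of them, of OMOMYC samples at 25 and of EGFP samples at 20. Of the 46, 19 (41.3%) had peaks in SNF5 samples only, against 37.4% of all 40005 sites. Inside the gene lay 15 of the 19, and 29 of all 46. Of the 19, HMGA2 held 8, IGF2BP2 5, IGF2BP3 4, and IGF2BP1 and H19 1 each. LIN28B and HMGA1 had 0. Most of the 19 had a peak in only 1 SNF5 sample. At HMGA2 this was mostly sample 1, which had the longest list (33596 peaks).

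In all, 2 sites were present in 3 of 3 SNF5 samples and 0 of 3 EGFP samples, 4.35% of the 46 against 9.09% of all sites. One lay 1413 bp upstream of the HMGA2 start (chr12:65822918-65823176, hg38), with 4.46-fold, 4.34-fold and 4.68-fold enrichment in SNF5 samples 1, 2 and 3. The other was 24880 bp upstream of IGF2BP1 (chr17:48972362-48972648), with 4.03-fold, 5.86-fold and 4.85-fold enrichment. Neither had a peak in an OMOMYC sample. No site was lost with SNF5 by the same rule (0.0075% of all sites), and with OMOMYC 0 sites were gained or lost (0.0275% and 0.0175% of all sites), nor were any gained in 2 of 3 OMOMYC samples (1.5% of all sites). When 2 of 3 SNF5 samples sufficed, 12 of 46 sites (26.1%) were gained, against 22.3% of all sites: 4 at HMGA2, 3 at IGF2BP2, 2 at IGF2BP3 and 1 each at HMGA1, IGF2BP1 and LIN28B.

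At HMGA2, IGF2BP1 and IGF2BP3 the site over the start had a peak in 8 of 9 samples each. The sites 1065 bp upstream of IGF2BP1 and 3894 bp from the nearest IGF2BP3 start had one in 9 of 9. At IGF2BP2, the member that rose with SNF5, the start had a peak in 3 of 3 SNF5 samples (4.22-fold to 5.82-fold), 2 of 3 OMOMYC samples and 1 of 3 EGFP samples. At HMGA1, which fell, a site 1294 bp upstream had a peak in 3 of 3 SNF5 and EGFP samples and 2 of 3 OMOMYC samples, and the site over the start itself in 2 of 9 samples. LIN28B had a site 653 bp from an upstream alternative start in 7 of 9 samples.

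The number of peaks at the 8 loci was 15, 19 and 8 in EGFP samples 1, 2 and 3, 40, 29 and 21 in SNF5 samples and 8, 23 and 12 in OMOMYC samples. Every SNF5 sample was above every EGFP sample, a mean of 30 against 14 (exact two-sided permutation test, n = 3 each, p = 0.1, the smallest this design allows), and OMOMYC had a mean of 14.3 (exact permutation test, n = 3 each, p = 1.0). The lists of the SNF5 samples were longer than every EGFP list, with 22722 to 33596 peaks against 9208 to 17817 with EGFP and 7260 to 23684 with OMOMYC. As a share of each list, the members held 0.107% ± 0.0135 of peaks with SNF5 and 0.105% ± 0.0167 with EGFP (SD, n = 3, exact permutation test p = 0.8). With the same number of top peaks (7260) taken from every sample, 0 sites were gained at the members with SNF5. The share of all sites gained in that setting is not given here, so this 0 cannot be set against it.

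**Figure D5:**
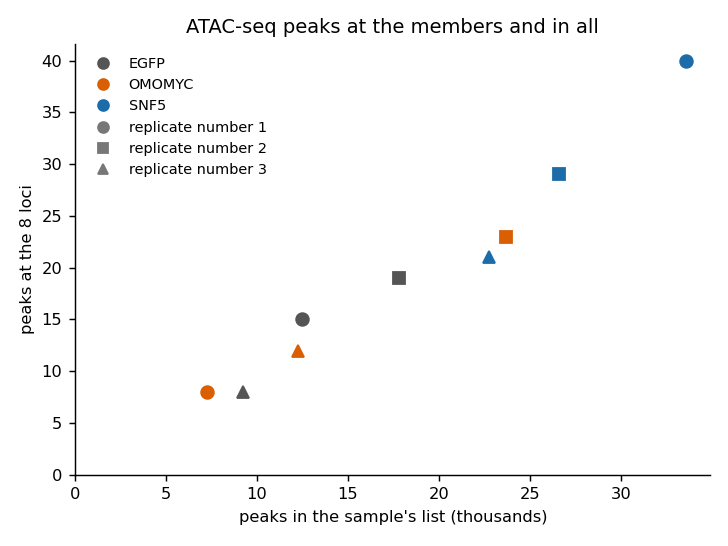
ATAC-seq peaks within 50 kb of the 8 members against all peaks of the same sample, with color for the construct and symbol for the replicate number. The members' peaks run from 8 to 40 and rise with the length of the list in all 3 constructs.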

How the data were processed

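PRO-seq, ATAC-seq and MYC ChIP-seq files were used as deposited, except that peak entries named as fake were left out. The IgG samples were not used here. For PRO-seq the authors trimmed reads with cutadapt, aligned them to hg19 with Bowtie2, removed rRNA and low-quality alignments and deposited raw counts per RefSeq transcript, near the promoter and over the gene body, beside a density signal (reads per bp). For MYC ChIP-seq (hg19) and ATAC-seq (hg38) the authors called peaks in each sample with MACS2, and the deposited lists give positions, fold ratio over background, and −log10 p-values and q-values, with no read counts, so depth at a peak is unknown. The deposited lists also hold a score, which was not used.

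Members and gene lists were chosen with earlier results of these data known. Counts were tested with edgeR 4.0.16 (quasi-likelihood) in R 4.3.3 over all genes with a mean of at least 10 counts, with all 9 samples in the fit, offsets from gene body totals and RLE factors for both regions, a block for the replicate number, and p-values adjusted by Benjamini-Hochberg (threshold 0.05). The change of the pausing index was the interaction of region and construct. Samples of the same number deviated together from the group means (r of 0.821 to 0.921, against −0.720 to 0.173 for other numbers), so the numbers were taken as pairs. The named list genes are up to 3 per list and direction with the largest fold change among those called with SNF5. Some genes that the naming rules select are not reported here. MYC peaks found in both EGFP samples (shared bases of 1 bp or more) were related to GENCODE starts within 1 kb, and ATAC-seq peaks of all samples were merged where they overlapped. No coordinate was converted between builds. RefSeq promoters were given for LIN28B, HMGA1, IGF2BP2, IGF2BP3 and H19. The tests were tried on simulated data. Alternatives were DESeq2 1.42.0, TMM factors, own promoter-proximal totals, no block, no filter, 2 groups only, each transcript as a row, each number left out, and other peak thresholds and windows. Python 3.11 with NumPy and pandas did the rest.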

Additional observations from a re-analysis of the deposited data

How the results depend on the processing

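Without the replicate block, 0 members passed in gene bodies or the pausing index in any comparison, where 3, 2 and 2 (gene body, SNF5, OMOMYC and SNF5 against OMOMYC) and 1, 1 and 0 (index) passed with it. Of all genes, 1.49%, 0.00664% and 0.498% passed in gene bodies without the block, and 0% in the index in each comparison. Leaving out 1 replicate number gave 0 to 4, 0 to 5 and 0 to 6 members in gene bodies and 0 to 1, 0 to 1 and 0 to 0 in the index, while 9.64 to 56.2%, 0.0133 to 44.6% and 4.9 to 41.2% of all genes passed in gene bodies and 0.125 to 5.49%, 0 to 8.6% and 0.0716 to 3.76% in the index. TMM factors gave 1 gene body call between SNF5 and OMOMYC, beside 19.3% of all genes. A fit of only those 2 groups gave 1 index call (HMGA2), beside 3.3% of all genes against 1.15% in the main fit. The members with a MYC peak at a start were 3 within 5 kb of a start, and 1 to 5 with one EGFP sample left out. Sites gained with SNF5 were 0 from equal numbers of top peaks, 12 with 2 of 3 samples, 1 within 10 kb, and 4 to 8 with 1 number left out. With 2 of 3 samples 22.3% of all sites were gained, and for the other settings that share is not given here. The difference in ATAC-seq peaks between OMOMYC and EGFP (0.33 peaks) turned to −0.00273 percentage points as a share of all peaks and ran from −1.5 to 4.0 with 1 number left out. DESeq2, no filter and each transcript as a row left all counts of members called as they were.

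Among the members' fold changes, signs turned only in values that did not pass, in the main setting or in the alternative. In promoter-proximal counts with OMOMYC, their own scaling gave HMGA2 −0.035, IGF2BP1 −0.040, IGF2BP2 −0.16 and IGF2BP3 −0.028. There HMGA2 turned to −0.096 without the block, and IGF2BP2 to −0.0068 with TMM and −0.00083 with no filter. IGF2BP1 turned to −0.00029 in gene bodies with SNF5 under TMM, and HMGA1 to 0.12 in the index between SNF5 and OMOMYC under own scaling. With 1 number left out, these ranges crossed 0. In gene bodies for SNF5 against EGFP they were HMGA2 −0.092 to 0.014, IGF2BP1 −0.043 to 0.054, IGF2BP3 −0.026 to 0.066. In gene bodies for SNF5 against OMOMYC they were HMGA1 −0.033 to 0.26. In promoter-proximal counts for SNF5 against EGFP they were LIN28B −0.29 to 0.088, HMGA2 −0.39 to 0.060, IGF2BP1 −0.24 to 0.024, IGF2BP2 −0.30 to 0.011. In promoter-proximal counts for OMOMYC against EGFP they were HMGA2 −0.10 to 0.45, IGF2BP1 −0.0097 to 0.21, IGF2BP2 −0.19 to 0.41, IGF2BP3 −0.0096 to 0.29. In promoter-proximal counts for SNF5 against OMOMYC they were HMGA1 −0.10 to 0.19. In the index for SNF5 against EGFP they were LIN28B −0.0050 to 0.33, HMGA2 −0.37 to 0.048, IGF2BP1 −0.32 to 0.049. In the index for OMOMYC against EGFP they were IGF2BP2 −0.28 to 0.34.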
